A study of Mus musculus with 3 samples.

Results

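The cells described here are leukocytes of the mouse testis that carried much Cd52 or Cd74 RNA and little Mzb1 or Lyz2 RNA. Cd52 encodes a short surface glycoprotein of lymphocytes and other leukocytes, and Cd74 encodes the invariant chain that guides class II molecules of the major histocompatibility complex. A cell was taken if its value of Cd52 was at least 2 or its value of Cd74 at least 3, and if Mzb1 and Lyz2 were both below 2, all as natural logs of 1 plus the transcripts per 10000. These cuts took 102 of 5023 cells, or 2.03%. Of the 102 cells, 73 passed both cuts, 15 passed that of Cd52 alone and 14 that of Cd74 alone. Mzb1, whose protein folds antibody in B and plasma cells, was at least 2 in another 161 cells. Lyz2, the lysozyme of macrophages and other myeloid cells, was at least 2 in another 30 cells. The remaining 4730 cells passed none of these cuts and are called the other cells.

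The 102 cells were chosen on measured values, so the levels of these 4 genes are given as a description. The cells nearest the cuts had Cd52 values of 2.01, 2.02 and 2.02 inside and 1.85, 1.78 and 1.77 outside, and Cd74 values of 3.11, 3.20 and 3.30 inside and 2.72, 2.48 and 2.23 outside. Mzb1 reached 1.996, 1.99 and 1.98 just inside its ceiling and 2.01, 2.02 and 2.04 just outside. Lyz2 reached 1.97, 1.78 and 1.73 inside and 2.01, 2.03 and 2.35 outside. The gap at the cut was widest for Cd74, smaller for Cd52, smaller still for Lyz2 and smallest for Mzb1. The limit to the Mzb1-high cells thus ran through a continuous range.

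B cells recognise antigen through a surface antibody that signals through the CD79 chains, and T cells through a receptor that signals through the CD3 chains. B cells, dendritic cells and macrophages load peptides onto class II molecules, which the invariant chain escorts to the endosome, and show them to T cells. Nearly all nucleated cells show peptides on class I molecules, whose light chain is B2m. In the healthy testis leukocytes sit mostly in the interstitium outside the seminiferous tubules, macrophages are their main kind, and lymphocytes are few.

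The libraries came from testes of ICR mice, an outbred stock, and ICR is the strain given for all groups. A virus vector (AAV9) that makes a short hairpin RNA and red fluorescent protein (RFP) was injected on postnatal day 21, with a hairpin against the long non-coding RNA Gm4665 on one side and the control hairpin on the other. The groups were hairpin 2 (shRNA2), hairpin 1 (shRNA1) and the control hairpin (shCtrl), each with 3 mice per the design text and 1 library of 10x Genomics 3' RNA sequencing. Somatic cells had been removed and RFP-positive cells sorted as germ cells, so the label of every cell was germ cell. All groups carried the vector and RFP, no uninjected testis was measured, and the age at collection is not given in the labels used here. With 1 library a group, a hairpin cannot be told apart from its library, its mice, its sort or its sequencing run, and no test between groups was made. By the injection of both sides, control and hairpin testes may come from the same mice. Which mice gave which library is not given in the labels used here. All intervals are exact 95% intervals that cover counting error only, and a share of 0 cells is given with the limit that a floor of 3 counts allows. The columns of the table were matched to hairpin 1 and hairpin 2 by the last digit of their names alone.

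The 3 libraries held 1873, 1732 and 1418 cells with medians of 16518, 14667.5 and 19366 transcripts (unique molecular identifiers, UMIs) for hairpin 2, hairpin 1 and control. The leukocytes were shallower, with medians of 12657, 10126 and 14002 UMIs and a whole range of 7499 to 53386. Of the cell barcodes, 18 occurred in more than 1 library, and 0 of these belonged to the 102 cells. A doublet caller marked 2, 7 and 8 cells of the 3 libraries and 0 of the 102, but with so few marks it was not relied on, and no cell was removed.

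Gm4665, the target of the hairpins, had 84.1, 54.0 and 313 CPM (UMIs per 1000000 UMIs) in the other cells of hairpin 2, hairpin 1 and control, so it was lower in both knockdown libraries. The other cells also differed in their mix, with elongating spermatid genes at 102882, 109785 and 142022 CPM in the same order. Levels of Gm4665 within a germ cell stage were not compared here. In the leukocytes it had 10.9 CPM with hairpin 2 (5.22 to 20.01), 16.8 CPM with hairpin 1 (6.16 to 36.6) and 49.4 CPM in the control (23.7 to 90.8), from 10, 6 and 10 UMIs. The interval of hairpin 2 lay below that of the control, and that of hairpin 1 overlapped both. In each library Gm4665 was lower in the leukocytes than in the other cells. Germ cell RNA was present in the leukocytes, as given further on, and the source of their Gm4665 UMIs was not tested.

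The leukocytes made up 62 of 1873 cells with hairpin 2 (3.31%, interval 2.55 to 4.22), 28 of 1732 cells with hairpin 1 (1.62%, 1.08 to 2.33) and 12 of 1418 control cells (0.846%, 0.438 to 1.47). The intervals of hairpin 2 did not overlap those of hairpin 1 and control, and those of hairpin 1 and control overlapped. Mzb1-high cells numbered 116, 41 and 4 in the same order, and Lyz2-high cells 3, 24 and 3. The 102 cells were therefore 34.3% (27.4 to 41.7), 30.1% (21.0 to 40.5) and 63.2% (38.4 to 83.7) of all cells past a leukocyte cut. The intervals of these shares overlapped between all libraries. How many leukocytes were in each testis and how many passed the removal of somatic cells and the sort cannot be told apart.

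**Figure D1:**
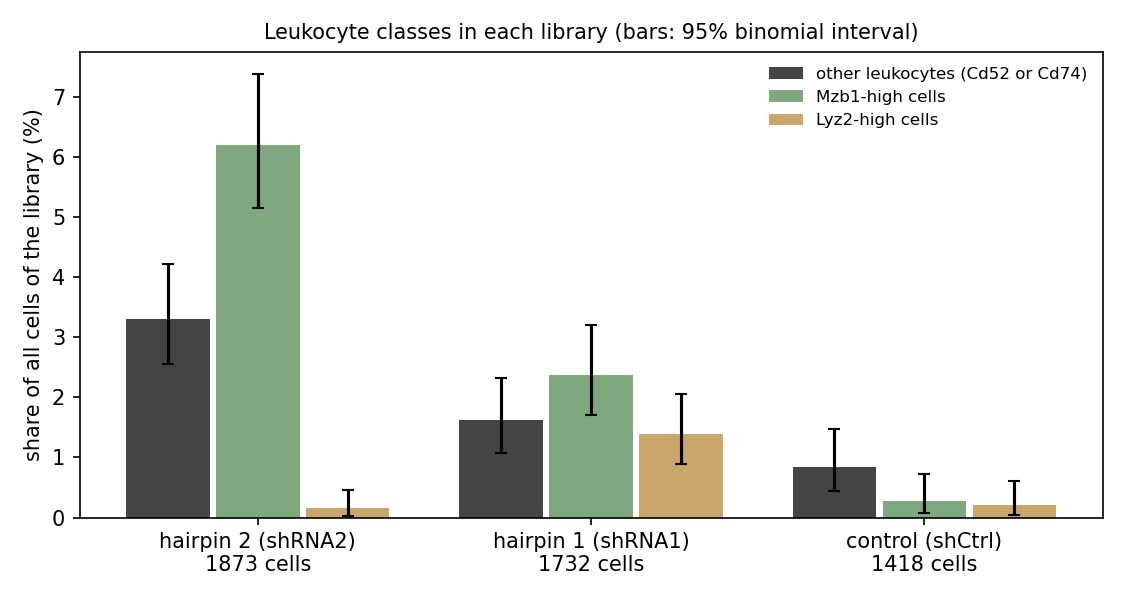
Share of each library's cells (%, y axis) in the 3 leukocyte classes for hairpin 2, hairpin 1 and control (x axis), with 95% exact binomial intervals. The dark bars of the Cd52- or Cd74-high cells stand at 3.31%, 1.62% and 0.846%.

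Markers fitted leukocytes and not germ cells. B2m, a marker of these cells that the cuts did not use, had UMIs in 102 of 102 cells, with 3360, 3629 and 4147 CPM for hairpin 2, hairpin 1 and control. In the other cells B2m stood at 27.2, 10.5 and 6.09 CPM. A list of 12 leukocyte genes, all detected, holds Cd52 and Cd74, which the cuts used; its 10 other genes summed to 6660, 7181 and 7430 CPM in the leukocytes of hairpin 2, hairpin 1 and control and to 73.1, 37.0 and 49.2 CPM in their other cells. Coro1a, an actin regulator of blood cells, had UMIs in 98 of the 102 cells, and Laptm5, a lysosomal protein of blood cells, in 94. Ptprc, the CD45 phosphatase, had UMIs in 70 of the 102 cells at 103, 98.0 and 93.8 CPM. After thinning every cell to 5000 UMIs, Ptprc was seen in 39.2% of the leukocytes and 0.44% of the other cells, and Coro1a in 80.4% and 0.53%. The label of germ cells in the sort therefore does not describe these cells by their markers.

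Beyond the genes of the cuts, H2-Aa stood furthest above the other cells by its lower fold in the hairpin libraries. This gene, the alpha chain of the class II molecule H2-A, had 4396, 4359 and 6724 CPM in leukocytes of the hairpin 2, hairpin 1 and control libraries, against 8.48, 2.93 and 1.90 CPM in their other cells. Rgs1, a brake on chemokine receptor signals, came next with 830, 773 and 1086 CPM, then Laptm5 with 542, 459 and 523 CPM and Ctss, the protease that trims the invariant chain, with 257, 263 and 183 CPM. The order went on with Cd83, Ccl4, Rps4x, Psmb8, Lsp1, Tyrobp, Cyba, Ccr7, Bcl2a1b, Coro1a, Tmsb4x, Id2, Bcl2a1d and Csf2rb. Rps4x, a ribosomal protein gene of the X chromosome, had UMIs in 102 cells at 4856, 4398 and 6042 CPM. Ccl4, a chemokine, came from only 9 of the 102 cells, so its place in that order rests on them. Bcl2a1b and Bcl2a1d, survival factors, are near-identical copies between which reads may be split.

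Lymphocyte markers divided most of the 102 cells. At least 2 UMIs of Cd79a and Ms4a1 (CD20 of B cells) together, with fewer than 2 of Cd3e and Cd3g, were found in 52 cells. The reverse, at least 2 UMIs of Cd3e and Cd3g, was found in 16 cells. Both pairs together were found in 0 of 102 cells, which allows a share of up to 2.94%, and neither pair in 34 cells. By wider panels of 13 genes each, with at least 5 UMIs, 53 cells held the B cell panel alone, 16 the T cell panel alone, 4 both (2, 1 and 1 with hairpin 2, hairpin 1 and control) and 29 neither. Of the 4 cells with both, 3 were in cluster 0 and 1 in cluster 3 of the clusters given further on. Among the other cells, 6 of 4730 passed the B cell pair and 4 the T cell pair, at the library depths given above, and 7 of 161 Mzb1-high cells passed both pairs. Genes of the antibody and T cell receptor constant regions were not analysed here.

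The cells with the B cell pair were 32 of 62 with hairpin 2 (51.6%, 38.6 to 64.5), 11 of 28 with hairpin 1 (39.3%, 21.5 to 59.4) and 9 of 12 in the control (75%, 42.8 to 94.5). Those with the T cell pair were 12 of 62 (19.4%, 10.4 to 31.4), 4 of 28 (14.3%, 4.03 to 32.7) and 0 of 12, which allows up to 25%. All these intervals overlapped between libraries. With 12 control cells, a lack of T cells in the control was not detectable at this depth.

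Cd79a had 218, 193 and 504 CPM in the leukocytes of hairpin 2, hairpin 1 and control and 1.90, 0.24 and 0.17 CPM in the other cells. Ebf1, a transcription factor of the B lineage, had 221, 216 and 247 CPM, and Ms4a1 had 113, 72.8 and 74 CPM. Blk, a kinase of the Src family, was at 33.1 CPM over all 102 cells. Fcer2a (CD23), which mature follicular B cells carry, had no UMI in any of the 102 cells. Of the 14 B cell genes of the list that the table holds, 13 were detected.

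Cd3e had 43.5, 64.4 and 0 CPM in the leukocytes of hairpin 2, hairpin 1 and control, and Cd3g had 79.4, 109 and 0 CPM. Cd3e was seen in 10, 4 and 0 cells, and Cd3g in 13, 4 and 0. Cd3d, another chain of the same complex, stood at 86.0, 151 and 0 CPM in the leukocytes, but also at 79.4 CPM over the 4730 other cells, so it was not used to mark T cells. All 17 T cell genes of the list that the table holds were detected in at least 1 of the 102 cells.

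**Figure D2:**
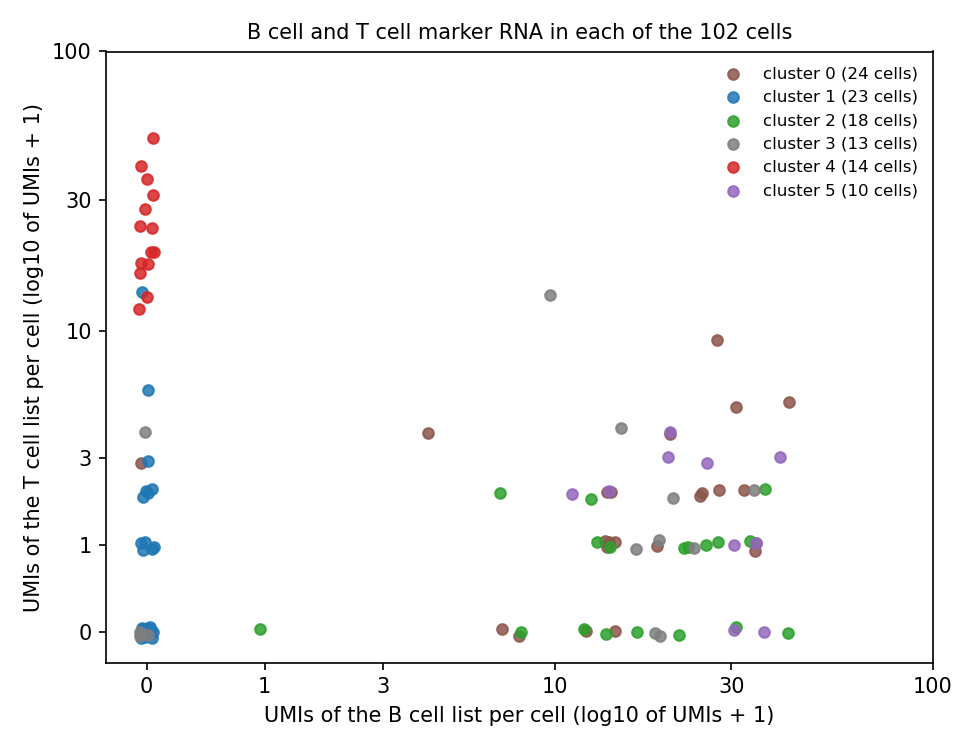
UMIs of 13 B cell list genes (x axis) and of 13 T cell list genes (y axis) in each of the 102 cells, both as log10 of UMIs + 1, coloured by cluster; only list genes under 10 CPM in the other cells are summed, and points are jittered. The 14 cells of cluster 4 hold 12 to 50 T cell UMIs and 0 B cell UMIs, and the 10 cells of cluster 5 hold 11 to 40 B cell UMIs.

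Clustering the 102 cells by their 1000 most variable genes gave 6 clusters, whose defining genes are a description. Cluster 4, with 14 cells (10 of hairpin 2, 4 of hairpin 1 and 0 of control), was T cell-like. It held a median of 21.5 UMIs of the T cell genes per cell and 0 of the B cell genes, and 11 of 13 T cell genes were at least 1.5-fold above the other clusters. Its leading genes were Sh2d1a, an adaptor of lymphocyte signalling, Cd3e, Cd3g, Tnfsf8, a ligand of the tumour necrosis factor family, and Penk, the enkephalin precursor. Cd3e, at 409 CPM, and Cd3g, at 650 CPM, had UMIs in all 14 of its cells. Cd4 was seen in 7 of these cells and Cd8a in 3. Cd74 was seen in 2 of the 14, so this cluster entered by Cd52 alone.

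Clusters 2 and 5 were B cell-like. Cluster 2 held 18 cells (13, 2 and 3 in the order of hairpin 2, hairpin 1 and control) with a median of 19 UMIs of the B cell genes, and 6 of 13 B cell genes were raised. Its leading genes were Ly6d, a surface protein of the B lineage, Capg, Cybb, Rftn1 and Bhlhe41, a transcription factor. Ly6d had 225 CPM in 9 of its cells, Cybb, a subunit of the oxidase of phagocytes and B cells, had 261 CPM in 15, and Bhlhe41 had 150 CPM in 11.

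Cluster 5 held 10 cells, all of hairpin 2, with a median of 27.5 UMIs of the B cell genes and 9 of 13 of them raised. It may therefore be that library and not a kind of cell. Its leading genes were Sh2d1b1, Plac8, Cdkn2a, Cd79b and C130026I21Rik. Plac8, a gene of lymphoid and myeloid cells, had 6029 CPM in 10 of 10 of its cells, against 1966 CPM in cluster 2 and 1551 CPM in cluster 0. Cd79b, the second CD79 chain, had 259 CPM in 9 of the 10 cells.

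Cluster 1 held 23 cells (14, 7 and 2) with 11 of 14 dendritic cell genes and 5 of 11 macrophage genes raised and 0 UMIs of the 13 B cell genes in every cell. It was left unnamed, since none of the dendritic cell list was among its 10 leading genes and the ceiling on Lyz2 had kept Lyz2-high cells out. Ccr7, the receptor that brings dendritic cells to lymph nodes, had 1352 CPM in 20 of its 23 cells. Xcr1 and Clec9a, of cross-presenting dendritic cells, had UMIs in 8 and 4 cells, Itgax (CD11c) in 12 and Flt3, a growth factor receptor, in 5. Its leading genes were the chemokine Cxcl16 (986 CPM in 23 cells), the membrane proteins Ifitm3 and Ifitm1, the decoy receptor Il1r2 and the protease inhibitor Cst3 (11797 CPM in 23 cells). The next 5 were Cxcl9, Ifitm2 (740 CPM in 20 cells), Lgals3 (849 CPM in 21 cells), Plbd1 (247 CPM in 18 cells) and Mcemp1 (144 CPM in 17 cells). Of the macrophage genes, C1qa stood at 81.0 CPM here and at 2443 CPM in the Lyz2-high cells, and Adgre1 (F4/80) at 0 CPM here and 106 CPM there. Cd74, which the cuts used, was at 19808 CPM in cluster 1.

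Clusters 0 and 3 were also left unnamed. Cluster 0 held 24 cells (8, 10 and 6) with 6 of 13 B cell genes raised, Cd79a among them at 568 CPM in 22 cells, and a median of 14.5 UMIs of the B cell genes. Its leading genes Apoe, Cd37, Paqr5, 4933402P03Rik and Jakmip1 were not those of B cells alone, since Paqr5 and 4933402P03Rik stood at 381 and 322 CPM in the other cells. Germ cell genes took a median of 2.58% and a maximum of 19.4% of UMIs in its cells, the highest maximum of the 6 clusters. Apoe, a lipid carrier of macrophages, had 718 CPM in 12 of its 24 cells.

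Cluster 3 held 13 cells (7, 5 and 1) with a median of 29072 UMIs, against 10082 to 13311.5 in the other 5 clusters. Its leading genes were Gm29666, the chemokines Ccl7, Ccl2 and Cxcl2, and 2810417H13Rik, a replication gene. Each of Ccl7, Ccl2 and Cxcl2 came from 4 of its 13 cells. Top2a, of dividing cells, was at 218 CPM in 11 of them, and 4 of 11 macrophage genes were raised, among them Lyz2, which the cuts capped. The macrophage genes came mostly from 4 cells with 17 to 43 UMIs of them, 3 of which held 0 B cell UMIs. The other 9 cells held 1 to 6 macrophage UMIs, and 8 of them held B cell UMIs. The doublet caller marked 0 of these deep cells but was not relied on.

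**Figure D3:**
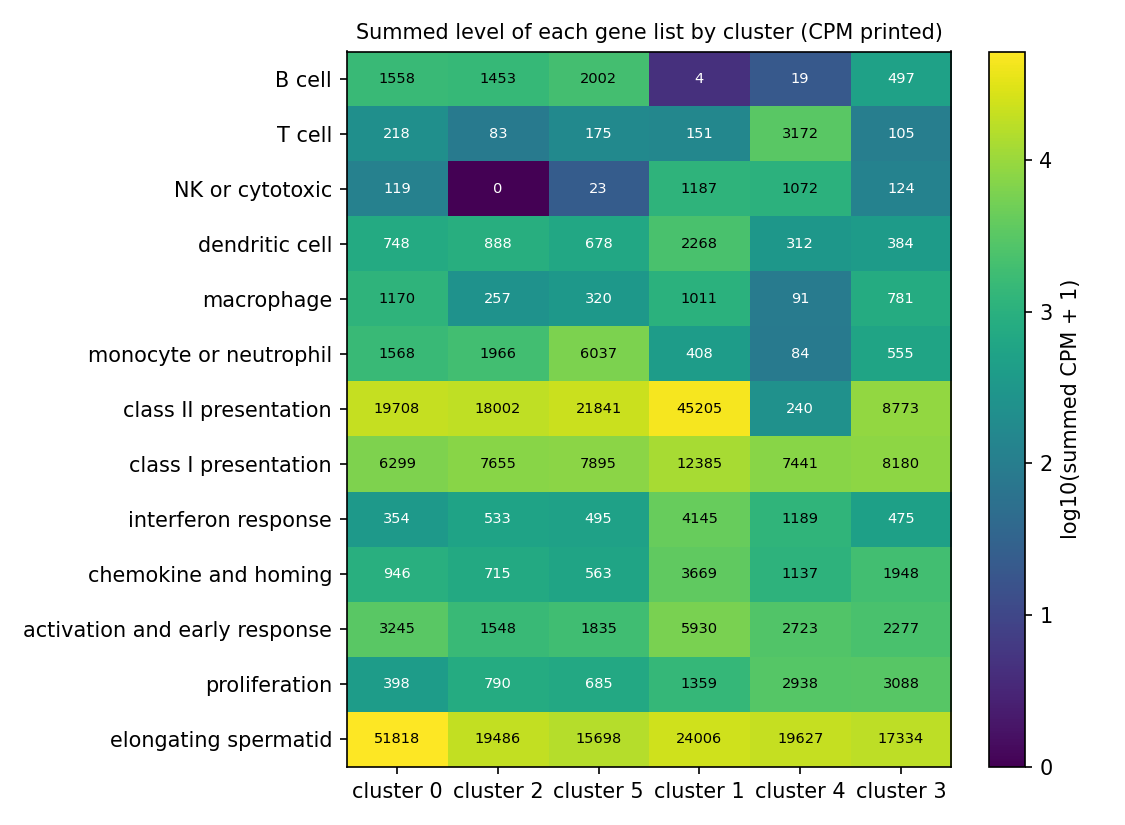
Summed CPM of 13 gene lists (rows) in the 6 clusters (columns), coloured by log10 of CPM + 1. T cell genes stand at 3172 CPM in cluster 4, class II genes, Cd74 included, at 45205 CPM in cluster 1 and 240 CPM in cluster 4, and elongating spermatid genes highest in cluster 0 at 51818 CPM. In cluster 0 this sum comes mostly from cells with 19.4%, 17.9%, 11.7% and 9.06% germ cell UMIs, against a median of 2.58%.

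Defining genes of neutrophils and mast cells were at 0. S100a8, S100a9, Ly6g, Csf3r and Cxcr2, of neutrophils, had no UMI in the 102 cells, so the list of monocyte and neutrophil genes (1739, 745 and 1076 CPM in the hairpin 2, hairpin 1 and control leukocytes) rested on Plac8, at 1361 CPM over all 102 cells. The mast cell and eosinophil list stood at 10.9, 11.2 and 9.87 CPM, with Cpa3 at 0. Klrb1c and Prf1, of natural killer cells, had no UMI, and Gzmb came from 1 cell. The list of natural killer and cytotoxic genes still summed to 346, 720 and 49.4 CPM in the leukocytes of hairpin 2, hairpin 1 and control, against 11.2 CPM over the other cells, and rested mostly on the chemokine Ccl5, at 324 CPM over all 102 cells. By cluster it stood at 1187 CPM in cluster 1 and 1072 CPM in cluster 4, where Nkg7, Klrd1 and Ccl5 were raised. The innate lymphoid list, which holds Rora and Icos, summed to 133, 84 and 34.6 CPM in the leukocytes and 36.9 CPM over the other cells. The macrophage list, which holds Lyz2, summed to 541, 932 and 1012 CPM in the leukocytes, against 71.9 CPM over the other cells and 19917 CPM in the Lyz2-high cells. Its 11 genes under 10 CPM in the other cells, Lyz2 among them, summed to 419, 605 and 286 CPM in the leukocytes. The high place of the control thus depended on the remaining genes of the list. Jchain, the joining chain of secreted antibody, stood at 79.4, 16.8 and 0 CPM in the leukocytes and at 65.9, 11.4 and 1.40 CPM in the other cells of the same libraries. In the Mzb1-high cells Jchain reached 18713, 38033 and 1878 CPM. With both hairpins Jchain in the leukocytes thus lay close to its level in the other cells.

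Without Cd74, which the cuts used, the other 11 genes of the class II list summed to 10024, 8693 and 15111 CPM with hairpin 2, hairpin 1 and control, against 66.8, 21.9 and 35.8 CPM in the other cells. H2-Ab1, the beta chain that pairs with H2-Aa, had 2637, 3097 and 4245 CPM. H2-DMa, which helps load peptides, had 307, 255 and 346 CPM, and Ciita, the master activator of class II genes, had 19.6, 14 and 19.7 CPM. In the T cell-like cluster 4, H2-Aa was found in 1 of 14 cells.

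H2-Eb1, the beta chain of the second class II molecule H2-E, differed far more between the libraries than H2-Aa and H2-Ab1. In the leukocytes it had 1865 CPM with hairpin 2 (1778 to 1955), 123 CPM with hairpin 1 (89.5 to 165) and 2893 CPM in the control (2663 to 3137), from 1714, 44 and 586 UMIs. To set aside how many cells carried class II, H2-Eb1 was counted per 100 UMIs of H2-Aa in each cell with at least 10 UMIs of H2-Aa. The 52 such cells of hairpin 2 ranged from 15.4 to 108 with a median of 41.8, the 24 of hairpin 1 from 0 to 20.7 with a median of 3.15, and the 12 of the control from 26.8 to 97.9 with a median of 43.7. Hairpin 1 thus stood apart from the control without overlap and overlapped hairpin 2 only at its edge, with 6 of its 24 cells at 0. H2-Ab1 per 100 UMIs of H2-Aa had medians of 48.1, 58.5 and 57.0.

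**Figure D4:**
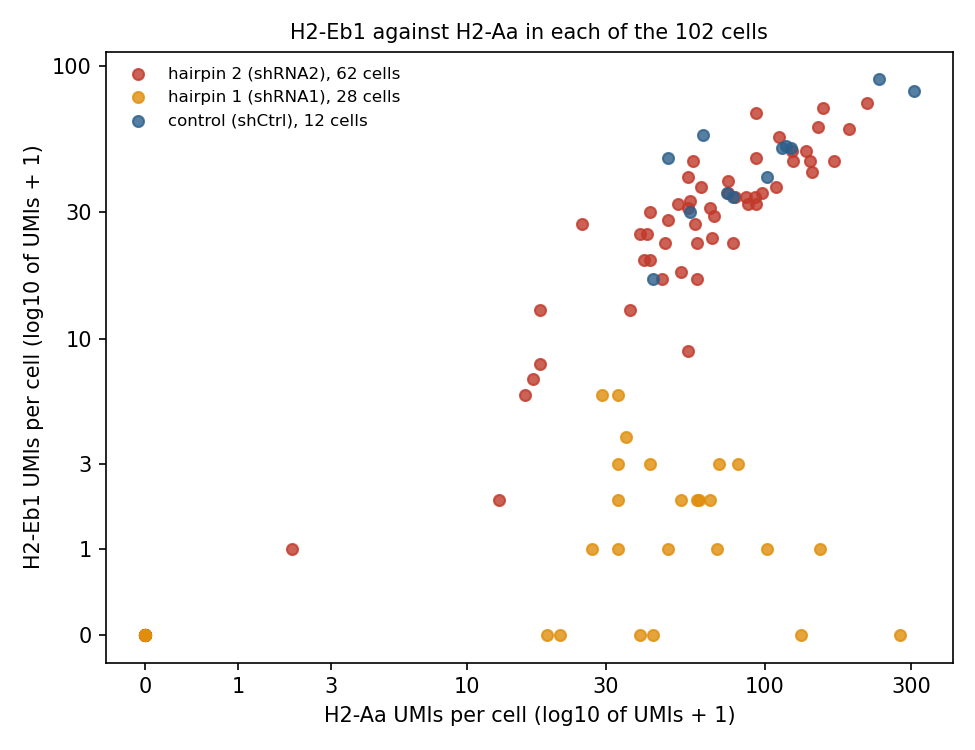
H2-Eb1 UMIs (y axis) against H2-Aa UMIs (x axis), both as log10 of UMIs + 1, in each of the 102 cells, coloured by library. Cells of hairpin 2 and control lie along 1 band with medians of 41.8 and 43.7 H2-Eb1 per 100 H2-Aa, and cells of hairpin 1 lie below it with a median of 3.15.

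The low H2-Eb1 of hairpin 1 was seen in the 4 clusters where it had cells with H2-Aa and in the other leukocyte classes. In cluster 1 the medians per 100 UMIs of H2-Aa were 35.6, 0.98 and 32.5 for hairpin 2, hairpin 1 and control, in cluster 0 they were 45.7, 3.15 and 45.7, in cluster 3 they were 36.6, 3.70 and 52.6, and in cluster 2, with 2 cells of hairpin 1, they were 47.6, 10.3 and 43.0. The Mzb1-high cells, which share none of the 102 cells, had medians of 38.7 with hairpin 2 (94 cells), 0 with hairpin 1 (23 cells) and 37.1 in the control (4 cells). The Lyz2-high cells had medians of 51.0 (3 cells), 1.96 (23 cells) and 34.7 (3 cells). H2-Eb2, the paralog of H2-Eb1, had 7, 2 and 2 UMIs in the leukocytes of hairpin 2, hairpin 1 and control, near 0 in each. The difference went with a library of 3 mice from an outbred stock, and hairpin, mice and library cannot be told apart. Whether control testes came from the same mice as those of hairpin 1 is not given in the labels used here.

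The promoters of H2-Eb1 and H2-Aa are shown because these genes share regulation through the SXY module of class II promoters and yet differed in 1 library. From RefSeq's starts on GRCm38.p6, the 250 bases before the start of H2-Eb1 lie at chr17:34305617-34305866 (plus strand), next to the gene at chr17:34305867-34316674. Those of H2-Aa lie at chr17:34287824-34288073 (minus strand), next to the gene at chr17:34282744-34287823. Capitals mark the letters GCAAC, the core of the X box, and CTGATTGG, the core of the Y box.
H2-Eb1: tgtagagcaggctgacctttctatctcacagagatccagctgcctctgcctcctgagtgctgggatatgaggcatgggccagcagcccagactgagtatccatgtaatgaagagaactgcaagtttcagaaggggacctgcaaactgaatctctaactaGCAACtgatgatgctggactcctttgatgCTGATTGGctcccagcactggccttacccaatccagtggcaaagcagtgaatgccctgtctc
H2-Aa: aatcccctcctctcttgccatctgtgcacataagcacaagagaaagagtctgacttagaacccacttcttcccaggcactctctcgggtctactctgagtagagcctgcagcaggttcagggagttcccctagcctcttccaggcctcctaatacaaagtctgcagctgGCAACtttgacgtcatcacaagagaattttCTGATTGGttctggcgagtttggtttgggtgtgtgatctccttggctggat
Both hold the pair in the same order, with 24 bases between the cores in H2-Eb1 and 25 in H2-Aa. The X core starts 91 bases before the start of H2-Eb1 and 81 bases before that of H2-Aa, and the Y core 62 and 51 bases before. Searched on both strands, CTGATTGG was found in 3.83% of 32851 promoters of that length, GCAAC in 29.9%, and GCAAC followed on the same strand by CTGATTGG after 10 to 40 bases in 38 promoters (0.116%). Of 8 class II genes looked up, 7 had an entry, and 3 of them, H2-Oa, H2-Aa and H2-Eb1, held the ordered pair. A match describes letters of the reference and is no sign of binding, and the sequence in these mice was not read.

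Class I genes stood at 7921, 9424 and 8925 CPM summed over 12 genes with hairpin 2, hairpin 1 and control. H2-D1 had 2160, 2915 and 2266 CPM and H2-K1 780, 1277 and 1052 CPM, both heavy chains whose near-identical sequences may split reads. Psmb8, a subunit of the immunoproteasome that cuts peptides for class I, had 603, 675 and 553 CPM and UMIs in 98 of the 102 cells. In contrast to class II, class I genes were high in all clusters, from 6299 CPM in cluster 0 to 12385 CPM in cluster 1.

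Genes were compared between hairpin 2 and hairpin 1 only, since the control held 12 leukocytes. Of 2606 genes with a mean of at least 50 CPM and at least 30 UMIs, 29 (1.11%) were at least 2-fold higher with hairpin 2 and 88 (3.38%) at least 2-fold lower, on the scale of CPM plus 1. The median log2 fold over all 2606 genes was 0.02. In 2 of the 29 higher and 28 of the 88 lower genes a single cell held at least 50% of the UMIs of a library. The balance of the directions depended on the filter, with 191 higher and 174 lower genes at a filter of 10 CPM and 3690 and 2070 at a filter of 1 UMI. With the highest cell of each gene left out, an alternative chosen after seeing the data, 30 were higher and 43 lower. These are differences between 2 libraries with no replicate, and they mix the level in a cell with the mix of clusters.

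H2-Eb1 had the largest higher fold, log2 3.91 with a counting interval of 3.49 to 4.39. Plac8 had 1703 CPM with hairpin 2 and 641 CPM with hairpin 1, log2 1.41 (1.21 to 1.62). Plac8 was also higher in the Mzb1-high cells, at 1160 and 360 CPM, log2 1.68, while in the other cells it had 17.3 and 13.1 CPM. In the leukocytes its log2 fold was 0.90 with clusters 0 to 4 weighted to the same sizes in both libraries, which leaves out cluster 5. Penk had 139 and 19.6 CPM, log2 2.77, of which 1 cell held 44.5% with hairpin 2. In the other cells Penk had 85.5 and 105 CPM. Acp5, an acid phosphatase, had 196 and 25.2 CPM, log2 2.91, but 1 cell held 80.0% of its UMIs with hairpin 2, and the log2 fold was 0.94 without the highest cell of each library and 0.44 without cluster 3.

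The other 6 of the 10 genes with the largest higher folds had log2 folds of 1.37 to 1.91. Tex29 had 87 and 22.4 CPM with hairpin 2 and hairpin 1, and 1700097N02Rik had 228 and 75.6 CPM. Both are also abundant in the other cells, where Tex29 stood at 267 and 233 CPM and 1700097N02Rik at 798 and 351 CPM. Nr4a2, an immediate-early nuclear receptor, had 86.0 and 30.8 CPM in the leukocytes and 21.4 and 1.95 CPM in the Mzb1-high cells. Serpinb6a, Trps1 and Lrrc34 had log2 folds of 1.43, 1.41 and 1.37 in the leukocytes and of -0.42, -0.12 and -0.32 in the Mzb1-high cells. Serpinb6a had 84.9 and 30.8 CPM in the leukocytes but 163 and 137 CPM in the other cells. Lrrc34 had 110 and 42.0 CPM in the leukocytes but 356 and 361 CPM in the other cells. How far germ cell RNA in the leukocytes entered these folds was not tested.

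**Figure D5:**
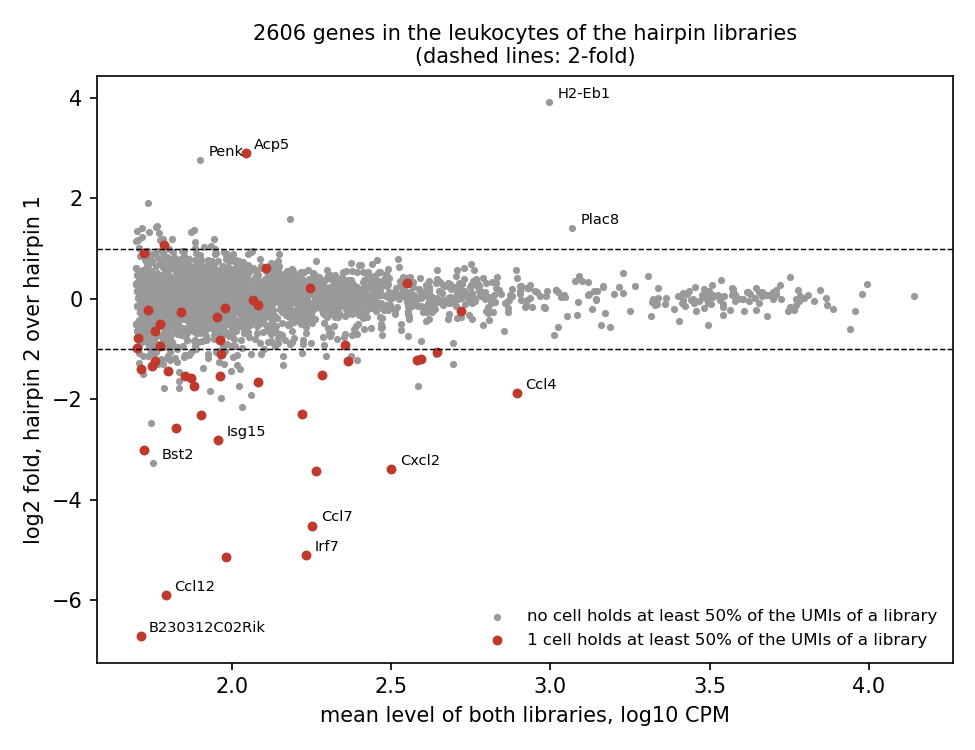
Log2 fold of hairpin 2 over hairpin 1 (y axis) against the mean level of both libraries (log10 CPM, x axis) for 2606 genes in the leukocytes; dashed lines mark 2-fold and red points are genes of which 1 cell holds at least 50% of the UMIs of a library. H2-Eb1 and Plac8 stand above the upper line at high levels, and many of the lowest points are red.

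Among the genes lower with hairpin 2, the largest folds came from few cells. B230312C02Rik had 0 UMIs with hairpin 2 and 37 UMIs with hairpin 1, all from 1 cell. Irf7, a transcription factor of the interferon response, had 8.70 CPM with hairpin 2 and 333 CPM with hairpin 1, log2 -5.11, of which 1 cell held 98.3%. Without the highest cell of each library the log2 fold of Irf7 was 0.14. Ccl12, Ccl7, Ccl2 and Cxcl2, chemokines for monocytes and neutrophils, had log2 folds of -5.89, -4.51, -3.42 and -3.39, and the long non-coding Gm29666 of -5.14. With hairpin 1, 1 cell held 84.1% of the UMIs of Ccl12, 68.3% of Ccl7, 75.8% of Ccl2, 74.4% of Cxcl2 and 88.1% of Gm29666. Without cluster 3 the log2 folds of these 5 genes turned. They were 1.27 for Ccl12 and Gm29666, 4.05 for Ccl7, 4.73 for Ccl2 and 6.08 for Cxcl2. These folds rest on few cells, so no direction is read from them. Cxcl2 had the most UMIs of these genes with hairpin 2, with 50 UMIs in 7 cells over all clusters. With hairpin 2, Ccl12 had 1 UMI in all, and 1 cell held 84.6% of the 13 UMIs of Ccl7. In the leukocytes outside cluster 3, Gm29666, Ccl7, Ccl2 and Cxcl2 stood at 0.90, 9.85, 16.1 and 45.7 CPM, under the filter's 50 CPM. In the Mzb1-high cells Ccl12, Ccl7, Ccl2 and Cxcl2 were lower with hairpin 2, at log2 -3.30, -2.72, -4.11 and -2.54, while Gm29666 was higher, at 2.23. There hairpin 2 and hairpin 1 had 0.49 and 13.6 CPM of Ccl12, 5.35 and 40.9 of Ccl7, and 2.43 and 58.4 of Ccl2. Cxcl2 had 9.24 and 58.4 CPM and Gm29666 21.9 and 3.90 CPM. Each mean lay under the filter's 50 CPM, so no direction is read from these folds either.

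Bst2 (tetherin), which holds budding viruses at the membrane, was the exception among the 10 lowest. It had 9.79 CPM in 7 of 62 cells with hairpin 2 and 104 CPM in 9 of 28 cells with hairpin 1, log2 -3.28, and 1 cell held 37.8% of its UMIs with hairpin 1. In the Mzb1-high cells Bst2 had 13.1 and 103 CPM, log2 -2.88, so the direction was the same in that separate set of cells. Isg15, a ubiquitin-like protein of the interferon response, had 21.8 and 160 CPM, log2 -2.82, and 3.89 and 23.4 CPM in the Mzb1-high cells. Wfdc17 had 10.9 and 95.2 CPM from 5 cells in each library.

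By list, the interferon response had 7 genes compared, 1 at least 2-fold higher and 4 lower with hairpin 2, and a median log2 fold of -1.22, beside 1.11% higher and 3.38% lower and a median of 0.02 over all 2606 genes. Its higher gene was Irf1, log2 1.35, and its lower genes were Irf7, Bst2, Isg15 and Ifi27l2a, log2 -1.22. With hairpin 1, 1 cell held 98.3% of the UMIs of Irf7, 59.6% of those of Isg15 and 37.8% of those of Bst2. Without the highest cell of each library the log2 folds were 0.14 for Irf7, -1.97 for Isg15 and -3.17 for Bst2. The summed level of the 20 genes was 952, 1988 and 1239 CPM in hairpin 2, hairpin 1 and control, and by cluster 4145 CPM in cluster 1 against 354 to 1189 CPM in the others. The chemokine and homing list had 5 genes compared and 3 lower (Ccl5, Ccl4 and Ccl3, with log2 folds of -1.05, -1.87 and -2.30), with a median of -1.05, beside the same 3.38% lower over all genes. In each of these 3 genes 1 cell held at least 50% of the UMIs of a library.

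The activation and early response list had 12 genes compared, 0 higher and 5 lower with hairpin 2, and a median log2 fold of -0.74, again beside 1.11% higher and 3.38% lower over all genes. The 5 were Btg2, Fos, Jund, Nr4a1 and Dusp1, at -1.46, -1.43, -1.14, -1.09 and -1.04. Jund, a subunit of the AP-1 transcription factor, had 123, 272 and 494 CPM with hairpin 2, hairpin 1 and control and was seen in 44 of 62, 23 of 28 and 12 of 12 cells.

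The counts of the lists that follow stand beside 1.11% higher and 3.38% lower over all 2606 genes. Lists with 1 to 5 genes compared are too short to be set against these shares. Of the 10 leukocyte list genes that the cuts did not use, 0 were 2-fold apart, with a median log2 fold of 0.06. The B cell list had 5 genes compared and 1 higher, Ly6d at 1.18, with a median of 0.63. The T cell list had 4 compared and none 2-fold apart, with a median of -0.50. The dendritic cell list had 3 compared and 1 lower, Fscn1, an actin bundler of mature dendritic cells, at -1.98, with a median of -0.84. The macrophage list had 2 compared and 1 lower, with a median of -0.78, the natural killer list 1 compared and lower, Ccl5, and the germinal centre list 1 compared and lower, at -1.09. Of 9 class II genes other than Cd74, H2-Eb1 alone was 2-fold apart, with a median of 0.01, and of 10 class I genes 0, with a median of -0.14. The proliferation list had 9 compared and 0 apart, with a median of 0.14.

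Germ cell RNA was present in every one of the 102 cells. The genes of 4 germ cell lists took a median of 1.98% of UMIs with hairpin 2 (1.12 to 19.4), 2.54% with hairpin 1 (1.24 to 11.7) and 2.55% in the control (1.79 to 3.17). In the other cells the medians were 5.79%, 9.82% and 17.0%. Prm1, a protamine of spermatid chromatin, was at 10886, 8878 and 8447 CPM in the leukocytes and had UMIs in all 102. In the leukocytes the UMIs of Prm2 per 100 of Prm1 were 59.5, 54.3 and 67.7, close to the 62.4, 62.7 and 72.0 of the other cells, and those of Tnp1 were 35.7, 33.5 and 33.3, against 34.0, 34.7 and 33.8. The transcripts of spermatids thus kept almost the same ratio in both kinds of cell, and the source of this RNA in the leukocytes was not tested. The elongating spermatid list had 14 genes compared between hairpin 2 and hairpin 1, 0 of them 2-fold apart and a median log2 fold of 0.20.

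In the same order, mitochondrial UMIs took a median of 1.90%, 1.91% and 2.13% in the leukocytes and 0.32%, 0.24% and 0.08% in the other cells.

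RNA of somatic testis cells was near 0 in the 102 cells. The Leydig cell list summed to 5.44, 0 and 4.94 CPM in hairpin 2, hairpin 1 and control, with Cyp17a1, Star and Insl3 at 0, and the red blood cell list to 3.26, 2.80 and 0 CPM. The Sertoli cell list stood at 56.6, 50.4 and 44.4 CPM in the leukocytes and at 144 CPM over the other cells. The list of myoid, mesenchymal and endothelial cells had 695, 428 and 528 CPM, nearly all of it Vim, which leukocytes also make, and Acta2 and Col3a1 were at 0. Slpi, a protease inhibitor of epithelia and leukocytes, had 51.1, 33.6 and 14.8 CPM, while Krt19, Crisp1 and Wfdc2 of the epididymal list were at 0.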

How the data were processed

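The authors deposited 1 table of natural log (ln) values, per the file's values ln of 1 plus 10000 times a gene's UMIs over the cell's UMIs, for 22843 genes and 5023 cells. Per the submitters' processing notes, the build was mm10 and the tools Cell Ranger 1.3.1 and Seurat 2.0.0. Annotation, strand and cell filter: not given in the sources used here. In each cell the smallest value stands for 1 UMI, and 100% of 20140203 non-zero values were whole UMIs within 0.01. For each class and library the UMIs of a gene were added up and divided by all UMIs of those cells (CPM). Depth per cell is given above; intervals were exact (Poisson for CPM, Clopper-Pearson for shares). With 1 library a group no replicate exists and no count model was run. The 0 columns of no sample left nothing out.

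The members and gene lists were chosen with earlier results of these data known. Of 305 listed genes over 26 lists, 20 were not analysed here for want of a row. Named genes were those of the cuts, the 20 with the highest fold over the other cells in both hairpin libraries, the 10 largest folds per direction between hairpins, the leading 5 of each cluster, up to 6 per list by level, any defining gene at 0, and Gm4665. Leukocytes were clustered with scanpy 1.11.5 and igraph 0.11.9 (1000 variable genes, 15 principal components, 10 neighbours, Leiden resolution 1, no batch correction). Doublets were sought with Scrublet in scanpy. The recovery of UMIs was tested on values rebuilt from known UMIs of some of the leukocytes, and the 2-fold calls on simulated counts. The other steps were not tested on simulated data. Other tools were Python 3.11.15, numpy 2.4.6, scipy 1.17.1, pandas 2.3.3 and matplotlib 3.10.9. Promoters came from RefSeq and gene positions from GENCODE on GRCm38 (mm10). Alternatives were other cuts, scalings, filters, pseudocounts, cell weights, resolutions and thinning.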

Additional observations from a re-analysis of the deposited data

How the results depend on the processing

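With a ceiling of 1.5 on Mzb1 and Lyz2 the leukocytes were 2.24% of cells with hairpin 2 and 0.353% in the control, and with a ceiling of 2.5 they were 4.91% with hairpin 2; the order of the 3 libraries was kept under each of the 9 alternatives. With each cell weighted equally the leukocyte list, Cd52 and Cd74 included, stood at 18668 CPM with hairpin 2, 20594 CPM with hairpin 1 and 23297 CPM in the control. Genes at least 2-fold higher with hairpin 2 (29) numbered 45 on totals without the 20 most abundant genes, 191 with a filter of 10 CPM and 3690 with a filter of 1 UMI; genes lower (88) numbered 174 and 2070 with the same filters. A few alternatives were chosen after seeing the data. Without cluster 3, 63 genes were higher, and with clusters 0 to 4 weighted to common sizes 75; with the highest cell of each gene left out, 43 were lower, of which 39 were shared with the 88. In these alternatives log2 folds turned for Ccl12 (1.27), Gm29666 (1.27), Ccl7 (4.05), Ccl2 (4.73) and Cxcl2 (6.08) without cluster 3, and for Irf7 (0.14) without its highest cell. By construction, the UMIs of these genes in hairpin 1 lay mostly in the cells left out. Outside cluster 3, Gm29666, Ccl7, Ccl2 and Cxcl2 stood below 50 CPM, and Ccl12 had 1 UMI with hairpin 2 in all. Cxcl2 had 50 UMIs in 7 cells with hairpin 2 over all clusters. The turned folds without cluster 3 therefore rest on few cells and give no direction. H2-Eb1 stayed between log2 3.78 and 4.05 in all 10 alternatives. Over the 20 genes named by fold and 10 alternatives, 176 values moved by less than their counting error, 18 moved by more and 6 turned. The filters of 10 CPM and 1 UMI only choose genes and cannot move a fold. Their values for H2-Eb1 and the other genes were thus fixed in advance and are counted among the 176. Of list levels, 48 moved by less and 27 by more. Leiden resolution 0.5 gave 3 clusters and 1.5 gave 8. At 0.5, clusters 2 and 5 and 20 of the 24 cells of cluster 0 fell together, 7 of the 13 cells of cluster 3 joined cluster 4 and 6 joined cluster 1; at 1.5, clusters 4 and 5 were kept whole and 7 cells of cluster 3 stayed together. After thinning, Cd79a was seen in 37.1% of hairpin 2 leukocytes and H2-Eb1 in 39.3% of those of hairpin 1. No paired analysis was possible because each group had 1 library. The control's 12 cells limit every value given for it.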

Other observations

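Activation and regulatory T cell genes were also present in the T cell-like cluster; they were chosen after their values were seen and are given as values. Of its 14 cells, Ikzf2 (Helios) had UMIs in 12 at 338 CPM, Tnfrsf4 (OX40) in 12 at 578 CPM, Icos in 11 at 253 CPM, Ctla4 in 9 at 201 CPM and Pdcd1 (PD-1) in 8 at 188 CPM, while Foxp3 had UMIs in 2 cells at 19.5 CPM. Nkg7, of cytotoxic granules, had UMIs in 5 of the 14 cells at 247 CPM. In the other cells of all libraries Ikzf2, Tnfrsf4, Icos, Ctla4 and Pdcd1 stood at 0.32, 0.39, 0.04, 0.03 and 0.15 CPM.

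Cluster 1 held Cd86, a costimulatory ligand, in 22 of 23 cells at 416 CPM and Cxcl9, a chemokine for activated T cells, in 11 cells at 306 CPM. Basp1, listed with germinal centre genes, was at 1225 CPM in all 23 of its cells.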
